A study of Caenorhabditis elegans with 4 samples.

Results

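The binding sites of the transcription factor C34F6.9 on the arms of chromosome V were examined in second-stage (L2) larvae of the nematode Caenorhabditis elegans. The sites come from ChIP-seq, in which fixed chromatin is collected with an antibody and its DNA is sequenced. A site was taken as an arm site when it was a peak of the authors' combined list on chromosome V with its midpoint below 7 Mb (left arm) or above 14 Mb (right arm). By this rule 487 of the 6494 combined peaks were arm sites, 275 on the left arm and 212 on the right arm, and the centre between the boundaries held another 447. The rule describes the arms as poor in peaks, so the lower density of the arms than of the centre is given as a description and is not tested.

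The 4 samples form 2 groups of 2, ChIP and input. All were hermaphrodites of strain OP324, grown to L2 at 20 degrees Celsius and then fixed with 2% formaldehyde. They carry the mutation unc119(ed3) and the transgene wgIs324, in which C34F6.9 is joined to the tags TY1, EGFP and FLAG and which also holds unc119. The ChIP samples were collected with antibodies against green fluorescent protein (GFP), which binds the tagged C34F6.9 made from the transgene, and the input samples are total genomic DNA from the same kind of extract. The transgene was brought in by particle bombardment, and the labels used here name no change to the worm's own C34F6.9 gene. The peaks therefore report the tagged protein in whole larvae with all cell types pooled. Nothing in the labels tells whether separate cultures were used for the 2 replicates, so differences between them may be technical. Without a list, the input samples are not analysed here, and no background can be set beside the peaks. Read counts are not part of the lists, so depth is unknown. Positions are in WormBase build WS220, and with a gene table of another assembly only, no gene is named beside a site.

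Chromosomes of C. elegans have no single centromere, and their "arms" are the outer parts of each autosome. The centres are known for densely packed, widely expressed genes and little recombination. Arms recombine more, hold more repeats, and carry more of the silencing mark histone H3 lysine 9 methylation, and they lie closer to the nuclear envelope. The arms of chromosome V are also known for large families of chemoreceptor genes. A ChIP-seq peak marks a place where DNA bound by the tagged protein, directly or through other proteins, was recovered more often than its surroundings.

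The left arm carried more sites per length than the right arm in all 3 lists. In the combined list the left arm had 39.3 peaks per Mb (exact Poisson 95% interval 34.8 to 44.2) over 7 Mb, and the right arm had 30.6 (26.7 to 35.1) over 6.92 Mb. The density ratio was 1.28 (95% interval 1.07 to 1.54; two-sided exact binomial p = 0.00652, or 0.0185 after Benjamini-Hochberg adjustment over 17 tests). ChIP replicate 1 held 1517 peaks on the left arm and 1233 on the right arm, or 216.7 and 178.2 per Mb, a ratio of 1.22 (1.13 to 1.31, exact binomial adjusted p = 2.7e-06). ChIP replicate 2 held 1107 and 935 peaks, or 158.1 and 135.1 per Mb, a ratio of 1.17 (1.07 to 1.28, exact binomial adjusted p = 0.00169). The combined list was made from these replicates and is not independent of them. Neighbouring peaks are not independent either, so all intervals and p-values cover counting error only.

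The ratio of the combined list was larger, 1.54, with boundaries at 6 and 15 Mb (exact binomial adjusted p = 4.0e-04). The higher density of the left arm was not called under several other ways of counting. Leaving out the longest stretch without a combined peak in each arm brought the combined ratio to 1.17 (exact binomial adjusted p = 0.158), and counting peaks within 10 kb of the next as 1 cluster gave 133 clusters on the left arm and 102 on the right arm, a ratio of 1.29 (adjusted p = 0.0992). With the first 6494 peaks of replicate 2 in place of the combined list, which leaves replicate 1 out, the ratio was 1.20 (exact binomial adjusted p = 0.0932).

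For comparison, the centre of chromosome V had 63.9 combined peaks per Mb, and both arms together had 34.98. In replicate 1 the arms held 197.5 peaks per Mb and the centre held 285.9, and in replicate 2 the values were 146.7 on the arms and 265.0 in the centre. The combined peaks covered 1.47% of the left arm, 1.13% of the right arm and 2.45% of the centre. The boundaries of 7 and 14 Mb fell where density was already changing. The last arm peak before 7 Mb lay at 6998219 to 6998674 and the first centre peak after it at 7060386 to 7060663. The first right-arm peak lay at 14001858 to 14002313 and the centre peak before it at 13961983 to 13962438. The 1 Mb just inside the left arm held 57 combined peaks and the 1 Mb just outside held 40, while at the right boundary the arm side held 72 and the centre side held 59.

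The arms were then divided into bins of 1 Mb counted from the chromosome end. Going inward from the left end, the left arm held 37, 40, 25, 30, 35, 51 and 57 combined peaks. Its sparsest bin, from 2 to 3 Mb, thus still held 25 peaks, and its inner bins held the most. Going inward from the right end, the right arm held 50, 19, 19, 3, 18 and 39 combined peaks in the first 6 bins and 64 in the last 0.92 Mb. The right arm therefore had 2 dense ends with a sparser interior between them, which was nearly empty in 1 bin, and the left arm had a shallow dip at a similar distance from its end. The interior of the right arm from 1 to 5 Mb from the end held 59 combined peaks in 4 Mb, or 14.8 per Mb, and the same part of the left arm held 130, or 32.5 per Mb. These limits were drawn after the bins had been seen, so the contrast is not tested.

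Both replicates showed the same minimum on the right arm. In the bin from 3 to 4 Mb from the right end, replicate 1 held 60 peaks and replicate 2 held 35, the lowest count of the 14 bins in each. The lowest bin of the left arm, from 2 to 3 Mb from the left end, held 125 peaks in replicate 1 and 85 in replicate 2.

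**Figure D1:**
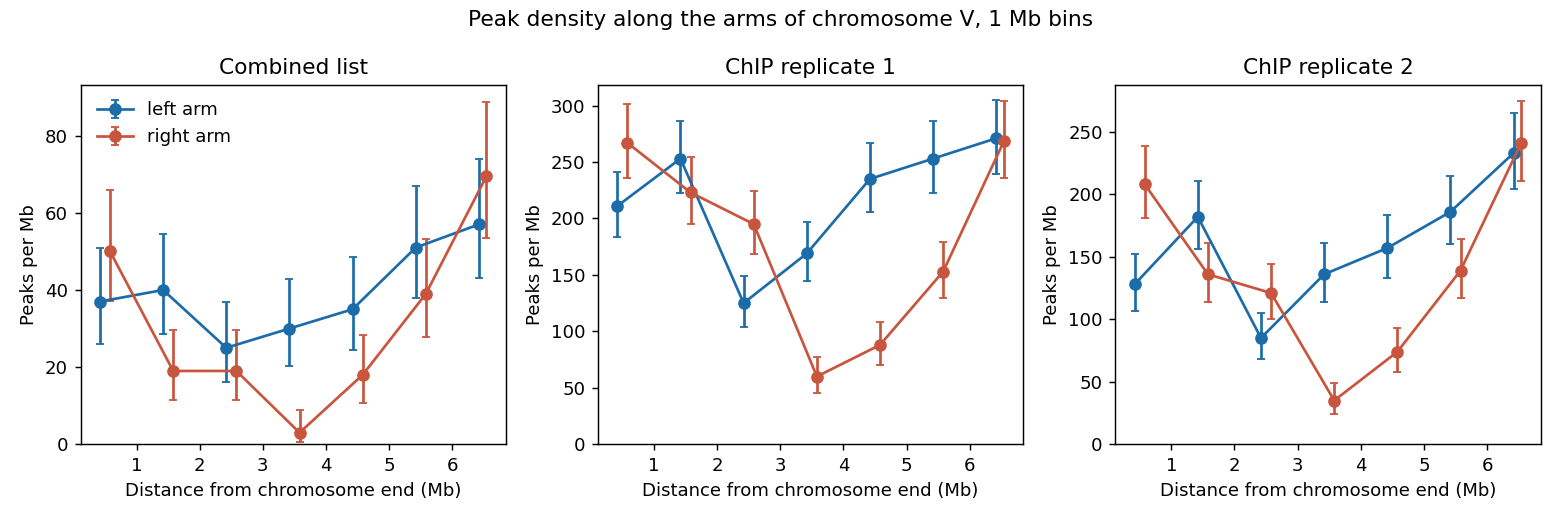
Peaks per Mb (y axis) in 1 Mb bins by distance from the chromosome end in Mb (x axis) on the left arm and the right arm of chromosome V, for the combined list and each ChIP replicate; the right arm's innermost bin is 0.92 Mb long and bars are exact Poisson 95% intervals. The right arm falls to 3 combined peaks per Mb in the bin from 3 to 4 Mb from its end, and the left arm stays at 25 or above.

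Each arm was divided at its midpoint into an outer and an inner part of equal length. On the left arm the outer part held 113 combined peaks and the inner part 162, or 32.3 and 46.3 per Mb, a ratio of 0.70 (0.54 to 0.89, two-sided exact binomial p = 0.00372, adjusted p = 0.0127). Sites on the left arm were thus denser towards the centre of the chromosome. On the right arm the outer part held 90 and the inner part 122, or 26.0 and 35.3 per Mb, a ratio of 0.74 (0.56 to 0.98, exact binomial p = 0.033, adjusted p = 0.0701), which missed the threshold. The outcome depended on where the arms end: with boundaries at 6 and 15 Mb, the ratio was 0.88 on the left arm (exact binomial adjusted p = 0.495) and 1.54 on the right arm (adjusted p = 0.0339), where the direction turned round. The left-arm call was also lost without the longest stretch of each arm (ratio 0.77, exact binomial adjusted p = 0.0731) and without the densest 100 kb window of each arm (0.76, adjusted p = 0.0701).

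Long stretches without a combined peak were more extensive on the right arm. The left arm had 14 stretches of at least 100 kb, which made up 2.07 Mb or 29.6% of its length. The right arm had 17, which made up 3.72 Mb or 53.7% of its length, and the centre had 6, or 12.2%. Stretches of at least 200 kb numbered 2 on the left arm, 6 on the right arm and 0 in the centre. At a minimum of 50 kb the order of the counts was the other way, with 46 on the left arm and 30 on the right arm, covering 61.8% and 67.1% of the arms. Many moderate spaces on the left arm thus stood against fewer and longer ones on the right arm.

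The longest stretch of the left arm ran from 2281955 to 2600619, a length of 318.7 kb. It held 9 peaks of replicate 1 and 5 of replicate 2, and none of the 9 overlapped any of the 5. Their best ranks were 12267 in replicate 1 and 12248 in replicate 2, where rank follows the authors' score and then the peak number. On the left side it was bounded by the peak at 2281499 to 2281954, number 2009 of the combined list, 2369 of replicate 1 and 1741 of replicate 2. On the right side it was bounded by the peak at 2600620 to 2600788, number 1675 of the combined list, 2026 of replicate 1 and 1425 of replicate 2. Each of these bordering peaks had another combined peak within 3.04 kb, so the stretch ended abruptly on both sides. The next stretches of the left arm ran from 2877721 to 3088333 (210.6 kb) and from 3398711 to 3579355 (180.6 kb). The first was bordered by the peaks at 2877265 to 2877720 and 3088334 to 3088789, and the second by those at 3398255 to 3398710 and 3579356 to 3579483.

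The longest stretch of the right arm ran from 16965961 to 17857874, a length of 891.9 kb. Both bordering peaks ranked high in every list. The peak at 16965675 to 16965960 was number 420 of the combined list, 619 of replicate 1 and 337 of replicate 2. The peak at 17857875 to 17858252 was number 550, 714 and 286 in the same lists. Between them, 11 of the 44 peaks of replicate 1 overlapped a peak of replicate 2, and 9 of the 26 peaks of replicate 2 overlapped one of replicate 1. Over all nuclear chromosomes the shares were 58.6% of replicate 1 and 71.7% of replicate 2, but these include peaks at combined sites. A lower share is therefore built into a stretch chosen for having no combined peak. The best matched pair lay at 17728837 to 17729286 in replicate 1, rank 8507, and at 17728682 to 17729141 in replicate 2, rank 7573. Weak peaks shared by both replicates were therefore present inside this stretch, all below the first 6494 ranks of each list. The next stretches of the right arm ran from 18087161 to 18490309 (403.1 kb), bordered by the peaks at 18086705 to 18087160 and 18490310 to 18490765, and from 16023068 to 16351122 (328.1 kb), bordered by those at 16022612 to 16023067 and 16351123 to 16351239.

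Stretches with no peak in any of the 3 lists were shorter. The longest on the left arm ran from 2341629 to 2486548 (144.9 kb) and the longest on the right arm from 17396769 to 17529784 (133.0 kb). Such stretches of at least 50 kb numbered 5 on the left arm, 11 on the right arm and 3 in the centre. The single longest common void thus differed little in length between the arms. The second longest measured 80.2 kb on the left arm and 124.0 kb on the right arm, and the right arm had more of at least 50 kb.

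The density of replicate peaks inside the stretches of at least 100 kb was close on the 2 arms. Replicate 1 held 93.3 peaks per Mb in those of the left arm and 95.0 in those of the right arm, and replicate 2 held 67.7 and 63.8. In these stretches, 58 of 193 replicate 1 peaks on the left arm (30.1%) overlapped a replicate 2 peak. On the right arm 109 of 353 (30.9%) did. The share was 51.6% for all replicate 1 peaks on the arms and 58.6% over all nuclear chromosomes. Both of the latter include peaks at combined sites, and 99.4% of combined peaks overlapped both replicates. A lower share is therefore built into stretches chosen for having no combined peak. Among the first 6494 ranks, the stretches of both arms together held 5 replicate 1 peaks, 2 on the left arm and 3 on the right arm, and 8 replicate 2 peaks, 3 and 5. Single stretches differed widely: the right-arm stretch from 18726327 to 18868521 held 239.1 replicate 1 peaks per Mb, above the arm's own mean, and the right-arm stretch from 15766510 to 15873698 held 18.7.

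**Figure D2:**
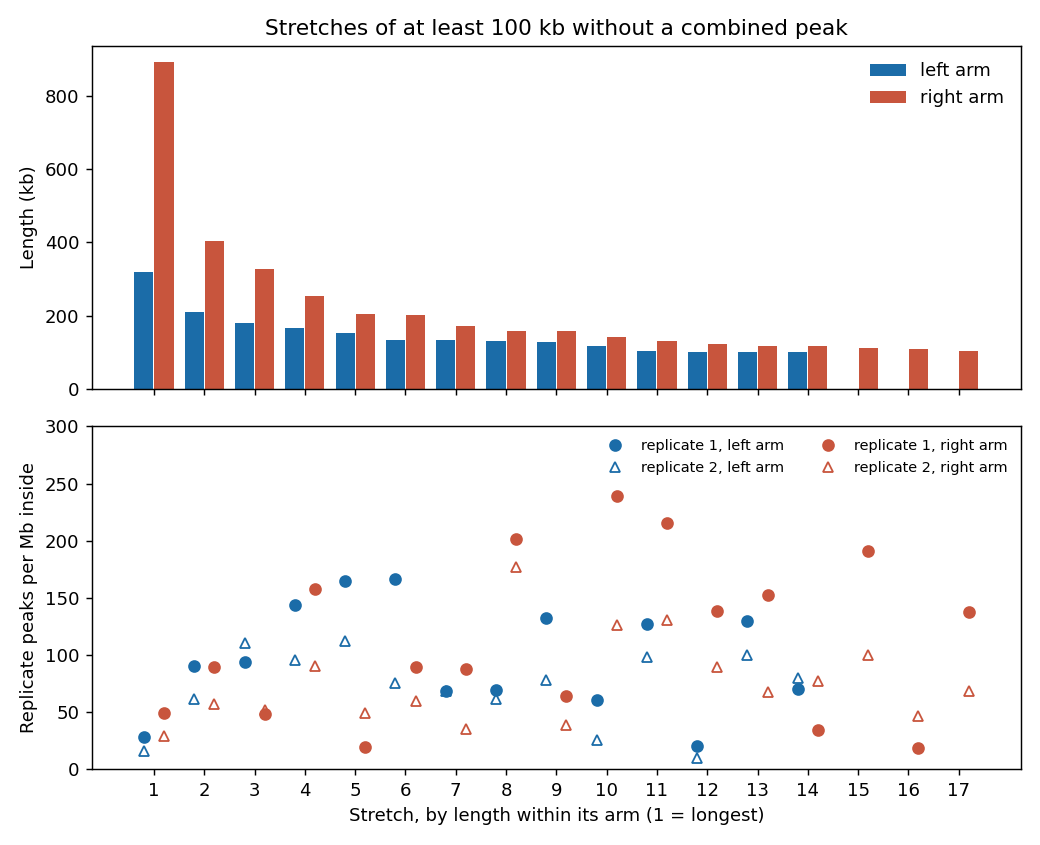
Length in kb of each stretch of at least 100 kb without a combined peak (upper panel, bars) and peaks per Mb of each ChIP replicate inside it (lower panel), ordered by length within the left arm and the right arm of chromosome V. The longest stretch measures 318.7 kb on the left arm and 891.9 kb on the right arm. Replicate 1 density is 28.2 and 49.3 peaks per Mb in these 2, against 93.3 and 95.0 over all such stretches of the left and right arm. Replicate densities do not rise or fall steadily with length, and an association was not tested.

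Isolated sites, with the nearest combined midpoint over 20 kb away, numbered 34 of 275 on the left arm (12.4%, exact binomial 95% interval 8.72 to 16.9%) and 41 of 212 on the right arm (19.3%, 14.3 to 25.3%). Over the whole combined list 7.27% of peaks were isolated, and in the centre of chromosome V 6.49% were. Isolation follows from low density, which the rule describes, so the excess over the centre is a description. The difference of left minus right arm, -6.98 percentage points, missed the threshold (Fisher's exact test, two-sided, p = 0.0424, adjusted p = 0.0802). It passed once overlapping peaks were merged (-9.16 points, Fisher's exact adjusted p = 0.0275) and came to -0.39 points when isolation meant over 50 kb. The right arm was also the sparser arm, so this comparison is not separate from that of density.

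The 5 most isolated sites of the left arm had their nearest neighbour 60.3 to 89.6 kb away. In order of isolation they lay at 4041881 to 4042336, at 3194998 to 3195453, at 5505055 to 5505369, at 5204250 to 5204448 and at 904692 to 904897. The site at 5505055, 70.9 kb from any other, was number 152 of the combined list, 166 of replicate 1 and 144 of replicate 2, so it was also the fifth-ranked site of its arm. On the right arm the distances reached 84.9 to 170.7 kb. The most isolated site was the peak at 16965675 that borders the longest stretch. The others lay at 19391134 to 19391589, at 15766198 to 15766509, at 20005766 to 20006065 and at 20090613 to 20091068. The site at 15766198, 102.2 kb from any other, was number 184 of the combined list, 225 of replicate 1 and 199 of replicate 2. The site at 20005766 was number 652 of the combined list, 652 of replicate 1 and 642 of replicate 2. The 5 most isolated sites thus ranged from number 152 to number 4494 on the left arm and from number 184 to number 6262 on the right arm. The highest score of the combined list, 3.50, was reached by 24 of the 34 isolated sites of the left arm (70.6%) and by 31 of the 41 of the right arm (75.6%), against 73.2% of the whole list.

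Clustered sites, with a neighbour within 2 kb, numbered 102 of 275 on the left arm (37.1%, 31.4 to 43.1%) and 75 of 212 on the right arm (35.4%, 28.95 to 42.2%), while 40.9% of the whole combined list and 42.1% of the centre were clustered. No difference between the arms beyond counting error was found (1.71 percentage points, left minus right, Fisher's exact test, two-sided, p = 0.705, adjusted p = 0.705). The sign turned with a limit of 1 kb (-5.23 points). Sites that overlap another site count as clustered, and there were 18 on the left arm and 32 on the right arm. With overlapping peaks merged the difference was 6.79 points (Fisher's exact adjusted p = 0.181). Linked by distances of up to 2 kb, the left arm had 29 pairs and 11 groups of 3 or more sites, and the right arm had 15 pairs and 11 such groups. The largest group of the left arm held 7 listed sites between 6223120 and 6229770. Among these the interval at 6224310 to 6224882 is listed under both number 128 and number 2737. The largest group of the right arm held 6 sites between 14847273 and 14853158. Median distance to the nearest site was 3.07 kb on the left arm, 3.90 kb on the right arm and 2.83 kb in the centre, and the 90th percentiles were 21.8, 32.0 and 16.6 kb.

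**Figure D3:**
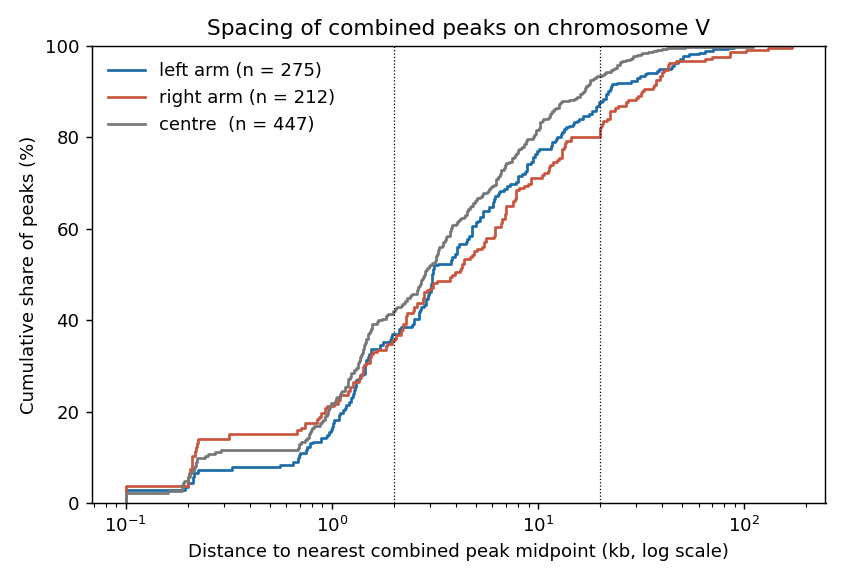
Cumulative share of combined peaks in percent (y axis) by distance in kb to the nearest other combined midpoint (x axis, log scale, distances under 0.1 kb drawn at 0.1) for the left arm, the right arm and the centre of chromosome V; dotted lines mark 2 and 20 kb. The 3 curves lie close together near 2 kb (35.4 to 42.1% clustered) and separate at 20 kb, beyond which lie 12.4% of left-arm, 19.3% of right-arm and 6.49% of centre peaks.

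The spread of sites was more uneven on the right arm. In windows of 100 kb the variance of the number of combined peaks was 2.47 times its mean on the left arm, 5.05 times on the right arm and 1.53 times in the centre. Of these windows, 10 of 70 on the left arm, 21 of 69 on the right arm and 3 of 70 in the centre held no combined peak. The corresponding ratios in replicate 1 were 5.55, 8.98 and 5.22, and in replicate 2 they were 4.71, 8.39 and 4.35. The densest window of the left arm, at 6180001 to 6280000, held 17 combined peaks, 39 peaks of replicate 1 and 44 of replicate 2. The densest window of the right arm, at 20700001 to 20800000, held 19 combined peaks, 54 of replicate 1 and 47 of replicate 2. It lay in the last 1 Mb of the chromosome. The densest window of the centre held 17 combined peaks, 61 of replicate 1 and 47 of replicate 2. The 19 peaks of the right-arm window include 4 pairs that overlap each other. The 17 of the left-arm window include the interval at 6224310 to 6224882 under both number 128 and number 2737. The highest score was reached by 16 of the 19, against 9 of 17 in the densest window of the left arm.

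The best-ranked sites of the arms stood below those of the centre, whose first was number 10 of the combined list. On the left arm the 5 best-ranked sites found in both replicates were numbers 51, 108, 128, 149 and 152. Number 51, at 6267441 to 6267767, was number 72 in replicate 1 and 52 in replicate 2. The next 3 lay at 1151279 to 1151741, at 6224310 to 6224882 and at 1871731 to 1872135. Numbers 51 and 128 both fell in the arm's densest window. On the right arm the 5 best-ranked sites were numbers 100, 110, 135, 148 and 160. Number 100, at 14685540 to 14685968, was number 83 in replicate 1 and 124 in replicate 2. The others lay at 15085407 to 15085773, at 17951182 to 17951672, at 20778193 to 20778604 and at 19529159 to 19529483. Number 135, at 17951182, lies 2969 kb from the chromosome end, in the sparse interior of the right arm, and was number 130 in replicate 1 and 123 in replicate 2. These 10 sites had the highest score of the list, which 4754 peaks share, so their order rests on the peak numbers.

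The share of sites with the highest score was not distinguished between the arms. This score was reached by 192 of 275 left-arm sites (69.8%, 95% interval 64.0 to 75.2%) and 152 of 212 right-arm sites (71.7%, 65.1 to 77.7%), against 73.2% of the whole combined list (Fisher's exact test between the arms, two-sided, adjusted p = 0.705). For both arms against the centre the shares were 70.6% and 76.3% (Fisher's exact test, p = 0.0543, adjusted p = 0.0923). Of the first 500 combined peaks, 13 lay on the left arm, 17 on the right arm and 38 in the centre. Among the first 650, the left arm held 3.1%, the right arm 3.5% and the centre 8.0%. Of the whole combined list these regions held 4.2%, 3.3% and 6.9%. Only the left arm thus had a lower share among the first 650 than in the whole list, and this was not tested. All of these first peaks have the highest score, so their order follows peak numbers. Of the 6494 combined peaks 4754 tie at the top score, so a division of the list at 50% falls within that tie and follows peak numbers there. All peaks below the top score lie in the lower 50%, together with part of the tie. The left-to-right ratio was larger in the lower 50% (147 and 96 peaks on the left and right arms, ratio 1.51, exact binomial adjusted p = 0.00551). In the upper 50% it was 1.09 (128 and 116 peaks, exact binomial adjusted p = 0.634). The difference between these ratios was not tested. Sites were alike in width, with a median of 456 bp on either arm and 30.2% of left-arm and 32.1% of right-arm sites narrower than that.

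Nearly every arm site was present in both replicate lists. All 275 left-arm sites and 211 of the 212 right-arm sites overlapped a peak of each replicate by at least 1 bp, against 99.4% of the whole combined list. The exception, at 15059521 to 15059976, overlapped a peak of replicate 2 only. Since the replicates went into the combined list, this agreement is not independent evidence of binding.

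The reverse comparison asked how many replicate peaks on the arms were matched elsewhere. In replicate 1, 1420 of 2750 arm peaks (51.6%) and 1317 of 2001 centre peaks (65.8%) overlapped a replicate 2 peak, against 58.6% over all nuclear chromosomes. The arms were lower by 14.2 percentage points (Fisher's exact test, two-sided, p = 1.1e-22, adjusted p = 1.9e-21). In replicate 2 the shares matched in replicate 1 were 66.7% on the arms and 69.1% in the centre, against 71.7% over all chromosomes (Fisher's exact adjusted p = 0.177). This difference of arms minus centre, -2.41 points, was called with boundaries at 6 and 15 Mb (-3.84 points, Fisher's exact adjusted p = 0.0316), and among the first 6494 ranks it turned to 3.25 points (adjusted p = 0.333). The shortfall of replicate 1 on the arms lay below the first ranks: among the first 6494 peaks of each replicate, 383 of 472 arm peaks and 366 of 463 centre peaks were matched, which is 2.09 points higher on the arms (Fisher's exact adjusted p = 0.560). Replicate 2 had 146.7 peaks per Mb on the arms and 265.0 in the centre, so a replicate 1 peak in the centre had more peaks within reach, and the part of this in the matched share was not tested.

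Between the arms, no difference in matched shares passed the threshold. For replicate 1 they were 52.5% on the left arm and 50.6% on the right arm (Fisher's exact adjusted p = 0.442), but among the first 6494 ranks the difference of left minus right arm turned to -8.02 percentage points (Fisher's exact p = 0.0322, adjusted p = 0.0623). For replicate 2 they were 68.7% and 64.2% (Fisher's exact p = 0.0303, adjusted p = 0.0701). With boundaries at 6 and 15 Mb the replicate 2 difference was 6.37 percentage points (Fisher's exact adjusted p = 0.0213). Peaks of replicate 1 overlapped the combined list in 22.2% of cases on the left arm and 20.6% on the right arm, against 26.7% over all chromosomes (Fisher's exact adjusted p = 0.442). For replicate 2 the shares were 29.1% and 27.5%, against 33.5% (Fisher's exact adjusted p = 0.523). With boundaries at 6 and 15 Mb the left arm exceeded the right arm in both, by 4.87 points in replicate 1 (Fisher's exact adjusted p = 0.0131) and 5.53 points in replicate 2 (adjusted p = 0.0388). For both arms against the centre, the shares of replicate 1 peaks in the combined list were 21.5% and 26.3% (Fisher's exact adjusted p = 6.7e-04), and among the first 6494 ranks the arms were instead the higher, by 5.55 points (adjusted p = 0.0216). In replicate 2 these shares were 28.4% and 29.1% (Fisher's exact adjusted p = 0.702), and among the first 6494 ranks the arms were higher by 5.51 points (adjusted p = 0.0250).

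Some arm sites overlapped one another within the combined list, 18 of 275 on the left arm (6.55%) and 32 of 212 on the right arm (15.1%), against 9.3% of the whole combined list.

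One part of the right arm had replicate peaks at ordinary density and few combined peaks. From 1 to 3 Mb from the right end, replicate 1 held 418 peaks, 209.0 per Mb, and 41 of them (9.81%, exact binomial 95% interval 7.13 to 13.1%) overlapped a combined peak. At the same distance from the left end, replicate 1 held 378 peaks, 189.0 per Mb, of which 80 (21.2%, 17.2 to 25.6%) did. For replicate 2 the numbers were 43 of 257 peaks near the right end (16.7%, 12.4 to 21.9%) and 73 of 267 near the left end (27.3%, 22.1 to 33.1%). Peaks there ranked lower: the median rank in replicate 1 was 20399.5 near the right end and 16925.5 near the left end, and in replicate 2 it was 15944 and 13256. From 3 to 5 Mb from the right end, by contrast, the replicates themselves were sparse, with 74.0 peaks per Mb in replicate 1 and 54.5 in replicate 2. Median ranks there were low too, 19553.5 and 14898. Combined peaks were fewest in the bin from 3 to 4 Mb, with 3. The bin from 4 to 5 Mb held 18, and the bins from 1 to 2 Mb and from 2 to 3 Mb held 19 each. The sparse interior of the right arm thus had 2 parts, 1 with replicate peaks at ordinary density and 1 with sparse replicate peaks, both low in median rank. The second part joins 2 bins that were unlike in their overlap with the combined list. These parts were chosen after the bins had been seen, so no test is given.

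The arms held a growing share of the replicate lists towards low ranks. In the first 10% of replicate 1 the left arm held 4.01% and the right arm 3.43% of all nuclear peaks, and in the last 10% they held 5.08% and 6.09%. The centre of chromosome V held 6.60% of the first 10% and 5.72% of the last 10%. In replicate 2 the left arm held 3.17% of the first and 5.53% of the last 10%, the right arm 3.21% and 5.61%, and the centre 7.32% and 7.97%. In the last 10% of the list, the density ratio of left arm to right arm was 0.82 in replicate 1 (95% interval 0.66 to 1.03) and 0.97 in replicate 2 (0.76 to 1.25), so the left arm was not the denser there. In the first 10% the ratio was 1.15 in replicate 1 (0.88 to 1.52) and 0.98 in replicate 2 (0.70 to 1.36). In the second to the fifth 10% of replicate 1 the ratio lay between 1.49 and 1.64, with every interval above 1. In the same steps of replicate 2 it lay between 1.22 and 1.86, with the interval above 1 in the fourth only. From the sixth to the ninth 10% of either replicate every interval included 1.

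**Figure D4:**
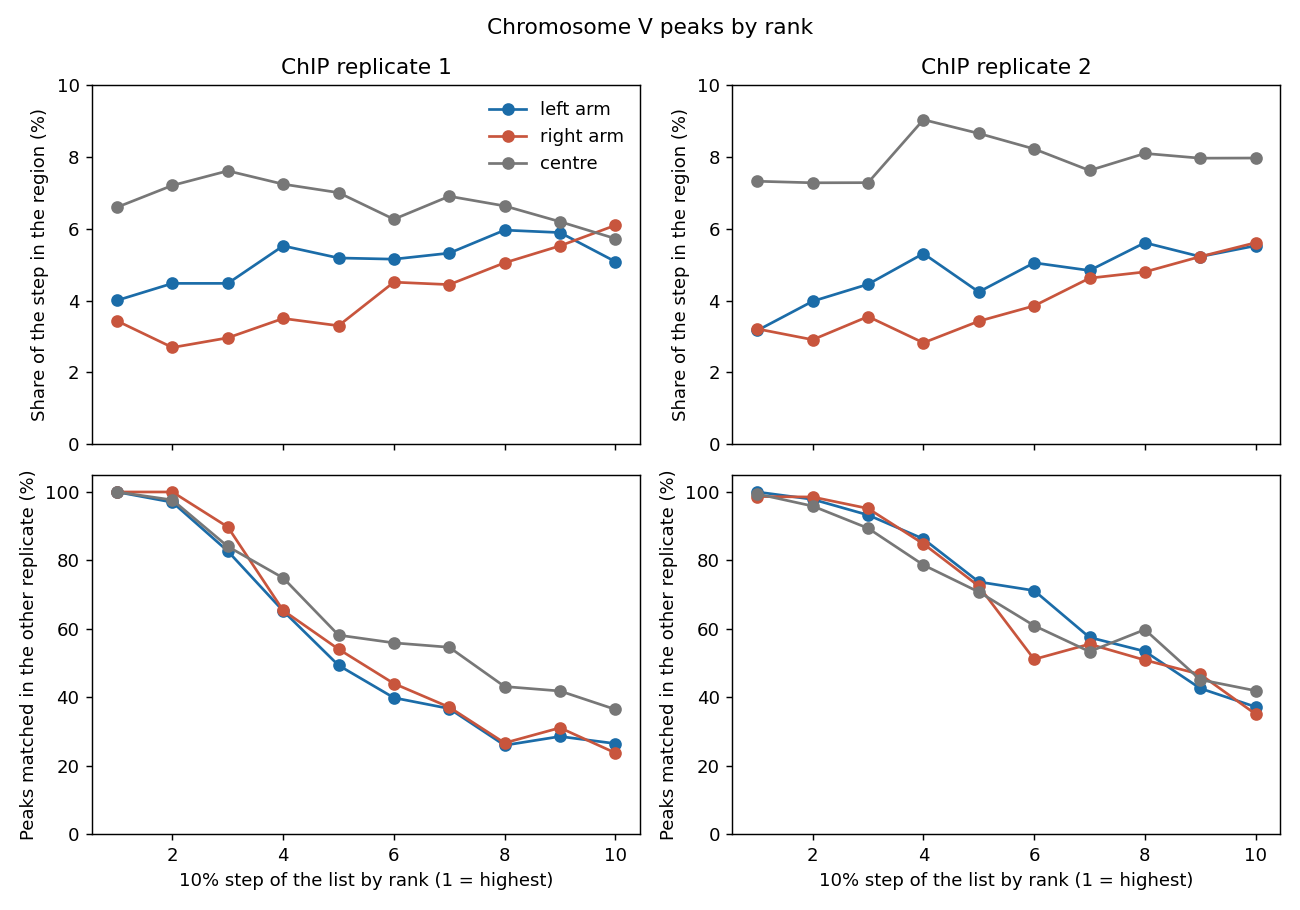
Share of each 10% of a replicate's nuclear peaks lying on the left arm, the right arm or the centre of chromosome V (upper panels, percent) and share of those peaks overlapping the other replicate (lower panels, percent), in steps of 10% of the list from the highest rank (x axis). On the right arm the share of replicate 1 is 3.43% in the first step and 6.09% in the last, and matching to the other replicate falls with rank in all 3 regions.

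Peaks matched between the replicates but absent from the combined list added to both arms. Replicate 1 had 461 such peaks on the left arm (65.9 per Mb), 370 on the right arm (53.5 per Mb) and 791 in the centre (113.0 per Mb). Replicate 2 had 439, 345 and 745, or 62.7, 49.9 and 106.4 per Mb. As a share of all replicate 1 peaks of the region they were 30.4% on the left arm, 30.0% on the right arm and 39.5% in the centre. For replicate 2 the shares were 39.7%, 36.9% and 40.2%.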

How the data were processed

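ChIP-seq peak lists of 2 ChIP replicates and 1 combined list were used, as the authors deposited them. Per the file headers they are on WormBase build WS220, and their source column reads SPP via IDR, a peak caller with a measure of reproducibility between replicates. For the aligner, versions, thresholds, use of the input and way of combining, no statement is given in the sources used here. Each peak's score is the authors' deposited score, of unstated scale, used only to rank peaks within a list, with ties in the order of the peak number. Other coordinates are the authors' deposited starts and ends, and depth cannot be recovered from them.

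Chromosome V was taken to end at the largest peak end, 20920767. Peaks overlapped when they shared at least 1 bp. Distances run between midpoints, to peaks of the whole chromosome. Stretches run between peaks and are assigned to a region by their midpoint. Densities were compared with exact binomial tests and shares with Fisher's exact test, both two-sided, and 17 p-values were adjusted together at a threshold of 0.05. Intervals are 95%, exact Poisson or Clopper-Pearson. Alternative values replace one p-value in this family. The tests were tried on simulated independent counts, and the overlap, distance and stretch steps on a short hand-made list. Uneven spacing of peaks was not simulated.

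The members, region limits and tests were chosen with earlier results of these data known. The sites named are, in each arm, the 5 best-ranked found in both replicates, the 5 most isolated, those bordering the 3 longest stretches, and the densest 100 kb window in steps of 10 kb. Alternatives were other boundaries, merging, rank subsets, overlap rules and distance limits. The software was scipy 1.17.1, numpy 2.4.6 and pandas 2.3.3 in Python 3.11.15, with figures by matplotlib 3.10.9.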

Additional observations from a re-analysis of the deposited data

How the results depend on the processing

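In 92 comparisons of a tested result with another setting, direction and side of the threshold stayed in 63, and in 8 more that were chosen after seeing the data they stayed in 6. Another 6 comparisons concern values with no test, of which 5 moved. The causes of the changes were not tested, beyond the fewer or different peaks that each alternative counts. The density ratio of left over right arm in the combined list was 1.54 with boundaries at 6 and 15 Mb, where it was called, and 1.29 with clusters, 1.17 without the longest stretches and 1.09 in the upper 50% of the list, these 3 not called. It lay between 1.20 (without replicate 1, not called) and 1.31 with 1 replicate left out. In replicate 1 it was 1.18 with clusters, and in replicate 2 it was 1.10 with clusters, 1.09 without the longest stretches and 1.20 in the first ranks, none called. The ratio of outer over inner part of the left arm lost its call at 0.88 (boundaries at 6 and 15 Mb), 0.82 (clusters), 0.77 (without the longest stretches), 0.66 (upper 50%), 0.73 (lower 50%) and 0.76 (without the densest windows, chosen after seeing the data), and was 0.68 to 0.69 with 1 replicate left out. On the right arm it was 1.54 with boundaries at 6 and 15 Mb, and it gained a call at 0.71 without the longest stretches and at 0.60 without the densest windows, with 0.75 to 0.78 when 1 replicate was left out. The share of isolated peaks, left against right arm, differed by -9.16 percentage points after merging (now called) and by -6.56 to -3.98 with 1 replicate left out. That of clustered peaks differed by 6.79 points after merging (not called) and by -5.23 points at 1 kb. With 1 replicate left out it differed by -1.01 to -0.27 points. Among the first ranks, arms against centre differed by 2.09 points for replicate 1 in replicate 2, 5.55 for replicate 1 in the combined list, 3.25 for replicate 2 in replicate 1 and 5.51 for replicate 2 in the combined list, all turned round. Left against right arm turned round there to -8.02 (replicate 1 in replicate 2) and -0.79 (replicate 1 in the combined list). Boundaries at 6 and 15 Mb added calls for replicate 2 in replicate 1 (-3.84, arms against centre, and 6.37, left against right arm) and for the left against the right arm in the combined list (4.87 for replicate 1 and 5.53 for replicate 2). Stretches numbered 46 and 2 on the left arm and 30 and 6 on the right arm at minimums of 50 and 200 kb. With a 50% reciprocal overlap, 81.3% of arm sites were found in both replicates. No paired analysis was possible because no list of the input samples, the numbered partners of the ChIP samples, was at hand. Depth is unknown, so a peak found in 1 replicate only cannot be taken as a difference in binding.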

Other observations

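The overlap of arm sites within the combined list was noticed in their spacing, and the comparison between the arms was chosen after that spacing was seen. Sites that overlapped another site numbered 18 of 275 on the left arm (6.55%, exact binomial 95% interval 3.93 to 10.2%) and 32 of 212 on the right arm (15.1%, 10.6 to 20.6%), against 10.7% in the centre of chromosome V and 9.3% of the whole combined list. The difference of left minus right arm was -8.55 percentage points (Fisher's exact p = 0.00247, two-sided and not adjusted). It was -9.29 points with boundaries at 6 and 15 Mb (Fisher's exact p = 0.00634) and -6.23 points without the densest 100 kb window of each arm (Fisher's exact p = 0.0287). Because the same data prompted the comparison, these p-values are not independent evidence of a difference. The overlapping sites formed 9 pairs on the left arm and 16 on the right arm. Both sites of a pair enter the test although 1 overlap makes both count, so the p-values also overstate the evidence. Pairs were not tested. In most pairs the midpoints were about 200 bp apart, with medians of 195 bp on the left arm and 207.8 bp on the right arm.

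In 4 pairs on each arm 1 peak lay inside the other with midpoints within 50 bp. Of these, 3 on the left arm and 1 on the right arm were the same interval listed under 2 peak numbers. The interval at 1151279 to 1151741 was both number 108 and number 5506, that at 6224310 to 6224882 was both number 128 and number 2737, and that at 17951182 to 17951672 was both number 135 and number 3117. Each of these 3 also belongs to the 5 best-ranked sites of its arm. The remaining left-arm interval, at 5064990 to 5065456 under numbers 964 and 2705, does not. In the whole combined list 46 intervals were listed more than once. Counting overlapping peaks once leaves 266 sites on the left arm and 196 on the right arm, a density ratio of 1.34 (exact binomial adjusted p = 0.00613).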
